A study of Arabidopsis thaliana with 204 samples.

Results

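The cytokinin oxidases CKX1 to CKX7 and the adenine phosphoribosyltransferase APT2 were followed in leaf tips and petioles of Arabidopsis thaliana. They are 8 of the 33602 loci of the table. The oxidases were taken as a whole family. APT2 was chosen by its measured fall in the leaf tip in FRtip, so that its leaf tip values are a description with no test. Col-0 plants of 28 days, grown with 9 h of light a day, received FRtip or stayed in white light (WL). In FRtip, far-red light added at the leaf tip lowered the red to far-red ratio there to 0.05, against 2.0 in WL, while the petiole was not illuminated with far-red. Leaf tips were harvested after 40, 60, 80, 100, 120, 140, 160, 180 and 300 min, and the abaxial (lower) and adaxial (upper) sides of the proximal petiole from 60 min on. Every sample pooled material of 13 leaves. There were 4 samples per group, and 3 for leaf tips in WL at 40 min, which made 199 samples. p-values measure the spread between these pools. A piece of tissue holds several cell types, and fewer cells of a type and less RNA per cell cannot be told apart.

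Cytokinins are adenine derivatives that promote cell division, delay leaf ageing and set sink strength. CKX enzymes break them down irreversibly by removing the side chain, most of them in the secretory pathway or outside the cell, and CKX7 in the cytosol. Adenine phosphoribosyltransferases salvage adenine, and several can also turn active cytokinin bases into nucleotides, which the receptors do not bind. Breakdown of cytokinin by CKX enzymes is known to stop leaf primordium growth in seedlings under a low red to far-red ratio, and CKX6 takes part in that response.

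Values are read counts per gene, scaled by the DESeq2 size factor of the sample (normalized read counts). A log2FC is the mean difference, FRtip minus WL, of log2(normalized read count + 1). A gene was called at an adjusted p below 0.05 in limma, over 19963 genes with a mean of at least 1. Of the 8 members, 6 passed this filter. CKX2 had at most 6 reads in a sample and none in 82 of 199, and CKX3 had at most 3 reads and none in 164 of 199, so neither was tested. Samples held 805840 to 5538648 reads on genes, with a median of 2304846. Summed shade genes (PIL1, HFR1 and HAT4) had a median of 2582 in the leaf tip in FRtip and 63.7 in WL, with no overlap between samples. In the petiole these medians were 161 in FRtip and 124 in WL abaxially, and 130 and 110 adaxially, with overlap between samples. Leaf mesophyll genes summed to 71282 in the leaf tip in FRtip and 71523 in WL (medians), and 4 of 4 were detected. The summed abaxial identity genes had medians of 536 (FRtip) and 520 (WL) on the abaxial side, against 306 and 302 on the adaxial side. KAN2 of this list went the other way, with WL means of 15.0 abaxially and 18.5 adaxially. Summed adaxial identity genes had WL medians of 287 abaxially and 396 adaxially, and leaf mesophyll genes 16562 and 33115. The part of cell types in differences between the sides was not tested.

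The 300 bases upstream of the annotated transcript start were searched on both strands for 5 motifs: the G-box CACGTG, the related CATGTG, the auxin response elements TGTCTC and TGTCGG, and AGATT, a core bound by type-B response regulators. The promoters of CKX5, CKX7 and APT2 are shown, because CKX5 and CKX7 were the members with a match to TGTCTC and moved in opposite directions in the leaf tip, and APT2 was the member that fell most. Capitals mark TGTCTC or its reverse complement GAGACA. Positions are counted back from the base before the start, which is -1, in the TAIR10.1 genome of RefSeq. CKX5 has its match at -227 to -222 (chr1:28318376-28318675, minus strand), CKX7 at -73 to -68 on the other strand (chr5:7226306-7226605, plus strand), and APT2 has none (chr1:30114011-30114310, minus strand).
CKX5: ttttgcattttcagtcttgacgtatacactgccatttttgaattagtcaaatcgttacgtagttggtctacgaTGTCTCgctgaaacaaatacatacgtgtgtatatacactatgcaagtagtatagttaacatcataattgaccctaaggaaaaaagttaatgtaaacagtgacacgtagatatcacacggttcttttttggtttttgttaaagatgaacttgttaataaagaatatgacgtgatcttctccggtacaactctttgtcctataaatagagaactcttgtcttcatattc
CKX7: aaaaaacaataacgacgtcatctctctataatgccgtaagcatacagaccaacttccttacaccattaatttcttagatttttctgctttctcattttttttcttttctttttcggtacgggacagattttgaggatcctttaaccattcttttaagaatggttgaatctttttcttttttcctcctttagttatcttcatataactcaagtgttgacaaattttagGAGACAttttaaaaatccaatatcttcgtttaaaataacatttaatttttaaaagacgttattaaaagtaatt
APT2: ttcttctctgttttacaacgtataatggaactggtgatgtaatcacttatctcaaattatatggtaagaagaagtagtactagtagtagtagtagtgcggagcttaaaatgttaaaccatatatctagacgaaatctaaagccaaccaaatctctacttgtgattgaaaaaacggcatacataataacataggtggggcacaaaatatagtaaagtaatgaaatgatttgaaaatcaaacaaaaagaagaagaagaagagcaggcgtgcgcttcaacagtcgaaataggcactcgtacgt
TGTCTC was present in 13% of 27443 promoters of this length, CACGTG in 7.09%, CATGTG in 13.1%, TGTCGG in 4.91% and AGATT in 70.7%. No member held CACGTG or TGTCGG in this window, and CKX3 held CATGTG, at -51 to -46. AGATT was present in 6 of the 8 members, in all but CKX4 and CKX5. In the printed promoters it lies at -168 to -164 and -152 to -148 on the other strand in APT2, and at -225 to -221, -176 to -172 and, on the other strand, -135 to -131 in CKX7. CKX4 held none of the 5 motifs. A match is a description of the letters and not a binding site.

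In WL, APT2 was the most abundant member per kb of transcript and CKX6 the most abundant oxidase. Over 60 to 300 min in the leaf tip, APT2 had 69.3 ± 14.9 normalized read counts per kb (SD, n = 32), CKX6 32.4 ± 6.46, CKX7 19.8 ± 6.26, CKX5 18.3 ± 5.08 and CKX4 15.0 ± 4.07. Which part of the transcript the reads cover is not given in the sources used here, and the division by length assumes the whole of it. Undivided, CKX5 had 49.7 and CKX7 40.8 normalized read counts, so that their order depends on this. The differences between CKX7, CKX5 and CKX4 were smaller than the SD of CKX7. CKX1 had 1.54 ± 1.33, and CKX2 and CKX3 had 0.137 and 0.0416 per kb. The order was the same on both petiole sides. APT2 had 106 ± 19.6 per kb on the abaxial side and 130.3 ± 17.9 on the adaxial side, CKX6 had 32.8 ± 14.1 and 40.6 ± 12.3, and CKX4 had 4.50 ± 1.74 and 3.84 ± 1.43.

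**Figure D1:**
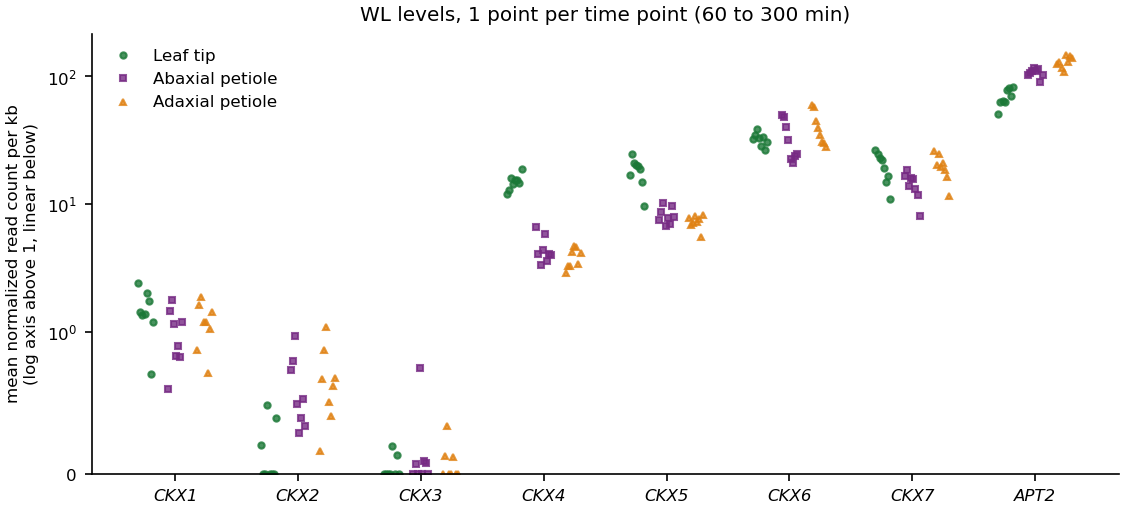
Mean normalized read count per kb of transcript in WL, with 1 point per time point from 60 to 300 min, by gene and tissue (logarithmic axis above 1). APT2 lies highest in all 3 tissues, CKX4 and CKX5 lie higher in the leaf tip than in either petiole side, and CKX2 and CKX3 lie near 0.

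CKX4 and CKX5 were higher in the leaf tip than in the petiole in WL. Leaf tip minus petiole, CKX4 differed by 1.79 (SE 0.10) on the log2 scale (limma adjusted p = 3.02e-28), CKX5 by 1.19 (SE 0.069) (limma adjusted p = 4.64e-27) and CKX7 by 0.21 (SE 0.054) (limma adjusted p = 0.000385). This made 3 of 5 tested oxidases called, while 84.9% of all genes were called, so that a difference between these tissues is not particular to them. APT2 had a log2 difference of -0.78, with no test. CKX6 differed by -0.12 (95% interval -0.22 to -0.0058, limma adjusted p = 0.0501) and CKX1 by 0.13 (95% interval -0.18 to 0.45), and neither was called. Abaxial minus adaxial, CKX7 differed by -0.46 (SE 0.057), CKX6 by -0.35 (SE 0.063) and APT2 by -0.30 (SE 0.056), all 3 called and lower on the abaxial side, where 66.9% of all genes were called between the sides.

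Some members also moved over the day in WL. In the leaf tip, CKX7 had 68.6, 52.4 and 61.6 normalized read counts in the 3 samples at 40 min and 24.4, 17.3, 21.7 and 27.3 in the 4 at 300 min (limma F test, adjusted p = 4.35e-05), so that its level fell over the day. CKX5 had its highest mean in WL at 80 min, 67.3, and its lowest at 300 min, 26.3 (limma F test, adjusted p = 4.04e-05). CKX5 and CKX7 were called over time in the leaf tip, 2 of the 5 tested oxidases, against 27.5% of all genes. On both petiole sides CKX6 and CKX7 were called, against 16.6% of all genes abaxially and 14.6% adaxially. CKX6 in WL averaged 101 abaxially and 119.8 adaxially at 60 min, and 42.6 and 61.7 at 160 min. APT2 was called adaxially (limma adjusted p = 0.0442), which was lost after median centring (limma adjusted p = 0.0589) and without any 1 of the 4 replicates (limma adjusted p of 0.0688 to 0.475).

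CKX5 showed the largest rise of the family in the leaf tip. The locus is AT1G75450, chr1:28314458-28318375 (TAIR10.1, minus strand). At 40 min it had 281, 304, 345 and 308 normalized read counts in the FRtip samples, against 34.9, 29.5 and 50.1 in WL. At 60 min it had 396, 402, 418 and 584 in FRtip, against 46.6, 34.3, 51.4 and 52.1 in WL. By 300 min the values were 266, 226, 219 and 278 in FRtip, against 30.5, 21.6, 29.8 and 23.4 in WL. The FRtip samples lay above all WL samples at 9 of 9 time points, while 12.2% of all gene and time point pairs in the leaf tip had groups that did not overlap. The ratio of the means was between 4.53 and 9.76. At 40 to 80 min the log2FC was 3.00 (SE 0.10) (limma adjusted p = 1.42e-32), followed by 2.48 (SE 0.075) at 100 to 180 min (limma adjusted p = 4.89e-35) and 3.19 (SE 0.17) at 300 min (limma adjusted p = 3.54e-22). By the DEG rule of the study, which asks for an unadjusted p below 0.01 and a log2FC beyond 0.3 at a time point, CKX5 was a DEG at 9 of 9 time points, where 7.93% of all gene and time point pairs were (2.63% to 11% by time point).

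The level of CKX5 in FRtip was highest at 60 and 80 min, with means of 449.9 and 442, and was 247 at 300 min. The WL mean was also lower at 300 min, and the FRtip effect was larger by 0.71 (SE 0.18) on the log2 scale at 300 min than at 100 to 180 min (limma adjusted p = 0.0219, with 2.17% of all genes called). That difference was lost without replicate 1, 2 or 4 (limma adjusted p of 0.107 to 0.165).

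CKX6 rose as early as CKX5, but its difference became smaller with time. The locus is AT3G63440, chr3:23424157-23426536 (TAIR10.1, plus strand). At 80 min it had 236, 227, 204 and 253 normalized read counts in FRtip, against 89.0, 67.6, 53.6 and 71.9 in WL. Later, at 300 min, it had 92.2, 103, 73.9 and 67.8 in FRtip, against 67.0, 62.0, 46.1 and 70.1 in WL. The groups did not overlap at 8 of 9 time points, and the DEG rule was met at 7 of 9, against 12.2% and 7.93% of all gene and time point pairs. The log2FC was 1.32 (SE 0.11) at 40 to 80 min (limma adjusted p = 2.53e-15) and 0.88 (SE 0.081) at 100 to 180 min (limma adjusted p = 7.67e-14). At 300 min it was 0.45 (95% interval 0.10 to 0.80) and was not called (limma adjusted p = 0.109). The effect at 300 min minus that at 100 to 180 min was -0.43 and was not called either (limma adjusted p = 0.310).

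CKX4 was high in FRtip at first and low later. The locus is AT4G29740, chr4:14566183-14569380 (TAIR10.1, plus strand). At 40 min it had 40.8, 38.99, 43.8 and 44.4 normalized read counts in FRtip, against 24.1, 13.1 and 25.97 in WL. From 120 min on it had means of 8.29 to 9.27 in FRtip, against 31.7 to 41.5 in WL. At 300 min the FRtip samples had 10.2, 9.13, 5.48 and 12.2, against 48.8, 30.3, 29.8 and 57.1 in WL. All FRtip samples lay above all WL samples at 40 min, and below them at the 5 time points from 120 to 300 min. Of all gene and time point pairs in the leaf tip, 12.2% had groups that did not overlap. At 40 to 80 min the log2FC was 0.62 (SE 0.17) (limma adjusted p = 0.00785), against -1.55 (SE 0.13) at 100 to 180 min (limma adjusted p = 1.33e-15) and -2.04 (SE 0.28) at 300 min (limma adjusted p = 1.67e-07). The early rise was lost without replicate 4 (log2FC 0.48, limma adjusted p = 0.135), and the later fall was kept without any 1 replicate.

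CKX7, the cytosolic oxidase, was lower in FRtip early on. The locus is AT5G21482, chr5:7226606-7230304 (TAIR10.1, plus strand). At 60 min it had 26.1, 28.2, 30.4 and 20.2 normalized read counts in FRtip, against 62.1, 64.0, 45.9 and 48.4 in WL. The 300 min samples had 25.6, 31.9, 31.5 and 28.9 in FRtip, against 24.4, 17.3, 21.7 and 27.3 in WL, where its level had fallen over the day. The log2FC was -0.93 (SE 0.13) at 40 to 80 min (limma adjusted p = 8.57e-08) and -0.43 (SE 0.10) at 100 to 180 min (limma adjusted p = 0.000313). At 300 min it was 0.38 (95% interval -0.048 to 0.81, limma adjusted p = 0.330) and was not called. The effect at 300 min minus that at 100 to 180 min was 0.81 (95% interval 0.34 to 1.28), just short of a call (limma adjusted p = 0.0544). The groups did not overlap at 5 of 9 time points, and the DEG rule was met at 3, against 12.2% and 7.93% of all gene and time point pairs.

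CKX1, CKX2 and CKX3 had few reads in the leaf tip. CKX1 had at most 3 reads in 103 of the 199 samples. Its log2FC at 100 to 180 min was 0.83 (SE 0.29) (limma adjusted p = 0.0240), which was lost without replicate 2, 3 or 4 (limma adjusted p of 0.0769 to 0.218). CKX3 had no read in the leaf tip in FRtip from 60 to 300 min. A difference was not detectable for CKX2 (AT2G19500, chr2:8444204-8447355) or CKX3 (AT5G56970, chr5:23044839-23048292) at this depth.

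**Figure D2:**
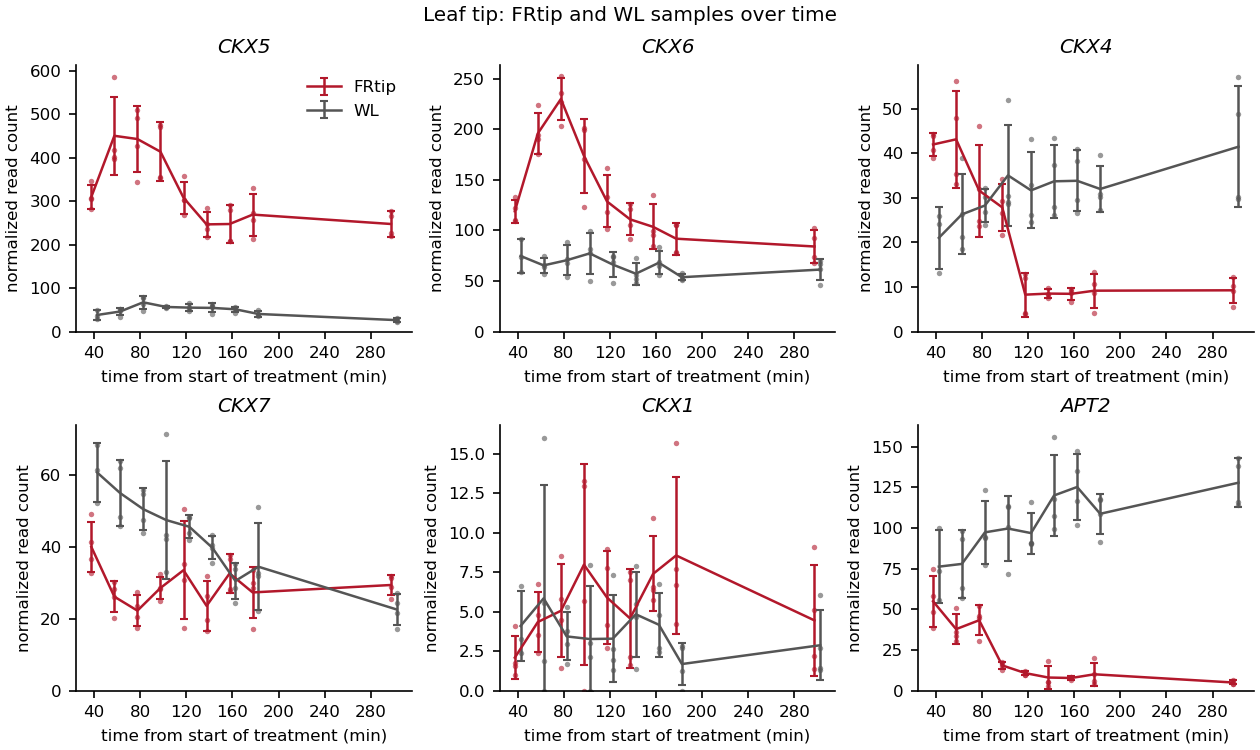
Normalized read count in the leaf tip against time from the start of treatment (min), in FRtip (red) and WL (grey), with points for samples and lines for means with SD. CKX5 in FRtip lies above WL throughout, CKX6 approaches WL by 300 min, CKX4 crosses from above to below WL, and APT2 in FRtip has means of at most 10.9 from 120 min on.

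APT2, the member taken for its fall, was lower in FRtip than in WL at each time point. The locus is AT1G80050, chr1:30111497-30114010 (TAIR10.1, minus strand). At 40 min it had 58.1, 74.9, 48.5 and 38.5 normalized read counts in FRtip, against 73.4, 99.8 and 55.6 in WL. At 100 min it had 17.7, 15.2, 16.6 and 13.0 in FRtip, against 71.5, 113, 113 and 101 in WL. The 300 min values were 5.12, 6.85, 4.11 and 4.45 in FRtip, against 116, 143, 138 and 114 in WL. Thus 8 of 9 time points had no overlap between the groups, where 12.2% of all gene and time point pairs in the leaf tip had none. The choice of APT2 by this fall favours such a count, so that it is a description and not a test. The ratio of the means at 300 min was 0.0401. In the 4 FRtip samples at 300 min, 3 reads equal 5.12, 6.85, 4.11 and 3.33 normalized read counts. APT2 thus lay at or just above 3 reads there, so that this ratio and the log2 difference at 300 min are imprecise. At 40 to 80 min the log2 difference was -0.88, against -3.38 at 100 to 180 min and -4.41 by the last time point. The means in WL lay between 76.3 and 128 and the means in FRtip between 5.13 and 55.0. The vasculature markers summed to 369 to 670 in the leaf tip in FRtip and 468 to 770 in WL, and the phloem regulator APL among them was called lower in all 3 windows (log2FC -0.30, -0.55 and -0.78), 1 of the list of 4. All 4 were above 0 in each sample, except CESA7 in FRtip. Of the epidermis list 1 of 3 was called lower in all 3 windows, ATML1 (log2FC -0.52, -0.35 and -0.62). The others were not lower on average, with KCS10 at 413 in FRtip and 358 in WL and PDF1 at 4.05 and 4.03. The summed epidermis markers had medians of 545 in FRtip and 522 in WL. The part of these cell types in the result was not tested.

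Of the 5 tested oxidases, 3 rose and 1 fell in the leaf tip at 40 to 80 min, where 4.22% of all genes rose and 6.2% fell. At 100 to 180 min 3 rose and 2 fell (12.4% and 16.8% of all genes), and at 300 min 1 rose and 1 fell (5.25% and 5.48%). The median log2FC of the 5 was 0.62, 0.83 and 0.42 in these windows, against -0.019, -0.0083 and -0.0075 over all genes. Such a median is the value of 1 gene, CKX4 at 40 to 80 min and CKX1, which had few reads, in the later windows. At 300 min the 95% interval of CKX1 was -0.86 to 1.70, so that these medians do not describe the family as a whole. Summed over the 7 oxidases per kb of transcript, the leaf tip held 305 ± 36.7 normalized read counts in FRtip and 98.9 ± 10.7 in WL at 80 min (SD, n = 4 each). By 300 min it held 154 ± 12.1 in FRtip and 71.8 ± 12.7 in WL. CKX5 made up 53.2% to 59.5% of this sum in FRtip by time point, and 13.8% to 25.1% in WL. With counts not divided by length, its share was 60.2% to 66.02% in FRtip and 17.3% to 30.5% in WL.

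**Figure D3:**
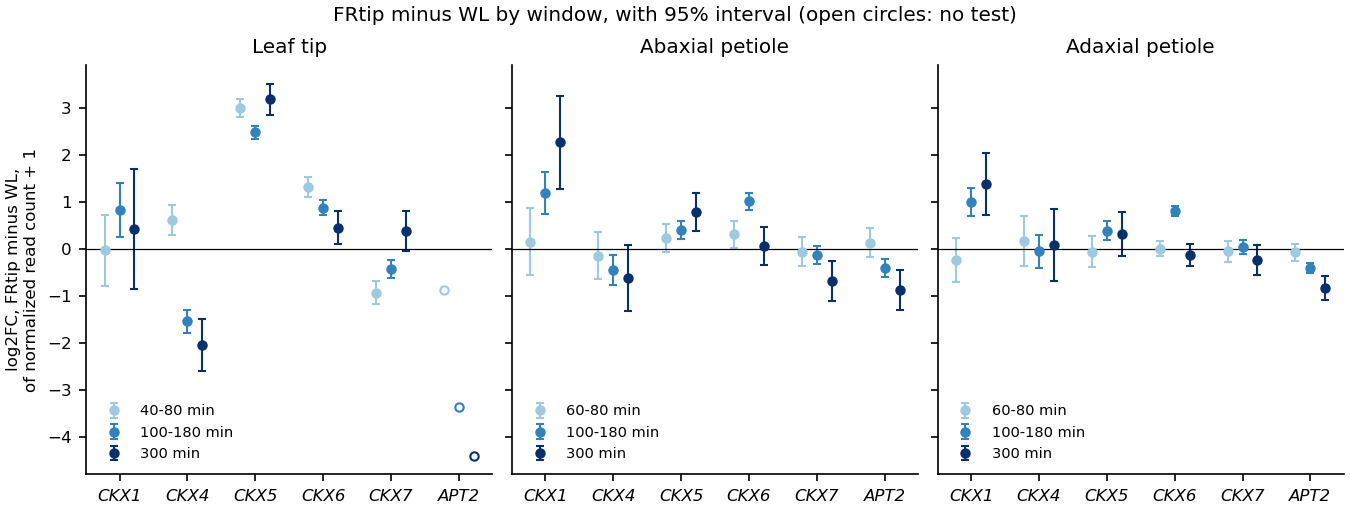
log2FC, FRtip minus WL, of log2(normalized read count + 1) by window in the leaf tip and on both petiole sides, with the 95% interval, and open circles for APT2 in the leaf tip, which has no test. CKX5 lies at 3.00, 2.48 and 3.19 in the leaf tip and below 1 in the petiole, and CKX1 reaches 2.27 abaxially at 300 min.

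The petiole, which was outside the far-red light, showed a later and different pattern. At 60 to 80 min limma called 0 of the 6 tested members on either side, as did edgeR, where limma called 0.01% of all genes abaxially and 0.00501% adaxially. The unadjusted p was below 0.05 for 1 of them, CKX6 abaxially. At 100 to 180 min CKX1, CKX5 and CKX6 rose on both sides and APT2 fell. In that window 5.77% of all genes rose and 4.38% fell abaxially, and 3.15% rose and 1.63% fell adaxially. CKX1 and CKX5 rose and CKX7 and APT2 fell abaxially at 300 min (2.67% of all genes rose and 4.51% fell), and CKX1 rose and APT2 fell adaxially (1.26% and 1.98%).

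CKX1, the least abundant of the tested oxidases, rose the most in the petiole. The locus is AT2G41510, chr2:17314412-17317354 (TAIR10.1, plus strand). On the abaxial side at 180 min it had 31.9, 15.6, 13.2 and 13.2 normalized read counts in FRtip, against 2.22, 1.43, 1.08 and 3.20 in WL. The 300 min samples had 22.2, 19.4, 18.6 and 10.8 in FRtip, against 3.59, 2.79, 1.43 and 3.79 in WL. These are sums of 102 reads in FRtip and 19 in WL, so that the ratio is imprecise. On the adaxial side at 300 min it had 12.7, 8.82, 9.23 and 10.3 in FRtip, against 1.84, 3.83, 5.13 and 2.92 in WL, from 47 and 19 reads. The groups did not overlap at either of these time points on either side, against 6.73% of all gene and time point pairs abaxially and 4.75% adaxially. Abaxially, the log2FC was 1.19 (SE 0.23) at 100 to 180 min (limma adjusted p = 0.000126) and 2.27 (SE 0.51) at 300 min (limma adjusted p = 0.00235). Adaxially, it was 1.00 (SE 0.15) (limma adjusted p = 3.71e-06) and 1.39 (SE 0.34) (limma adjusted p = 0.00862). The adaxial call at 300 min was lost without replicate 1 or 4 (limma adjusted p = 0.156 and 0.0518). The DEG rule was met upward at 4 of 8 time points on each side and downward at 1 adaxially, 80 min, where 3.79% of all gene and time point pairs were DEGs abaxially and 2.29% adaxially.

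CKX6 stayed high in the petiole in FRtip while it declined in WL. On the abaxial side at 140 min it had 125, 111, 124 and 122 normalized read counts in FRtip, against 57.4, 41.5, 41.8 and 42.3 in WL. On the adaxial side at 160 min it had 169, 129, 135 and 151 in FRtip, against 62.5, 64.8, 61.5 and 57.8 in WL. At 300 min the abaxial samples had 62.9, 48.8, 48.2 and 45.8 in FRtip, against 51.7, 51.5, 53.3 and 41.2 in WL, and the groups overlapped. At 100 to 180 min the log2FC was 1.02 (SE 0.092) abaxially (limma adjusted p = 1.03e-12) and 0.80 (SE 0.054) adaxially (limma adjusted p = 1.55e-16). By 300 min it was 0.053 (95% interval -0.35 to 0.46) and -0.12 (95% interval -0.36 to 0.11), and neither was called. The effect at 300 min minus that at 100 to 180 min was -0.96 (SE 0.23) abaxially (limma adjusted p = 0.00687, with 2.82% of all genes called). Adaxially this difference was -0.93 (SE 0.13) (limma adjusted p = 7.99e-06, 1.86%). The abaxial difference was lost without replicate 2 or 4 (limma adjusted p = 0.0960 and 0.0671). The groups did not overlap at 4 of 8 time points on each side, against 6.73% of all gene and time point pairs abaxially and 4.75% adaxially.

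**Figure D4:**
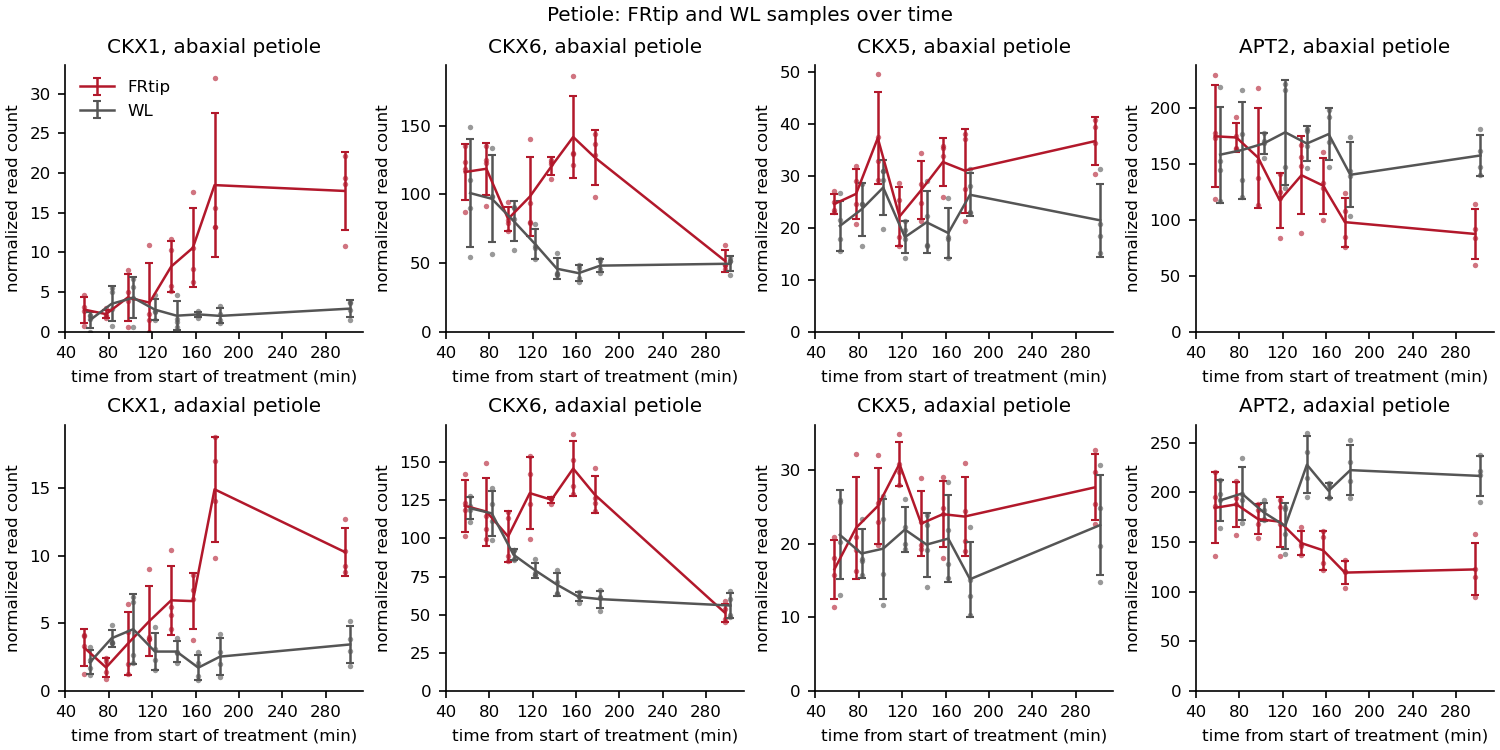
Normalized read count on the abaxial (top) and adaxial (bottom) petiole sides against time from the start of treatment (min), in FRtip (red) and WL (grey), with points for samples and lines for means with SD. CKX6 in FRtip stays above WL from 120 to 180 min and meets it at 300 min, and CKX1 in FRtip lies above WL at 180 and 300 min.

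CKX5, the leading oxidase of the leaf tip, rose little in the petiole. On the abaxial side at 300 min it had 40.7, 36.4, 30.3 and 39.3 normalized read counts in FRtip, against 20.8, 31.3, 15.2 and 18.4 in WL. Its log2FC was 0.40 (SE 0.094) at 100 to 180 min abaxially (limma adjusted p = 0.00195) and 0.39 (SE 0.11) adaxially (limma adjusted p = 0.0180). For 300 min it was 0.79 (SE 0.21) abaxially (limma adjusted p = 0.0125) and 0.32 adaxially (95% interval -0.14 to 0.78), the second not called. These 3 calls were not kept throughout when 1 replicate was left out, which also leaves fewer samples. The log2FC itself then ranged from 0.29 to 0.50 abaxially and 0.35 to 0.44 adaxially at 100 to 180 min, and from 0.70 to 0.98 abaxially at 300 min. The abaxial call at 100 to 180 min was lost without replicate 3 (limma adjusted p = 0.0936), the adaxial one without replicate 1, 3 or 4 (limma adjusted p of 0.0989 to 0.109) and the abaxial one at 300 min without replicate 1, 3 or 4 (limma adjusted p of 0.0713 to 0.133). CKX4 was not called in the petiole, with a log2FC of -0.45 abaxially at 100 to 180 min (95% interval -0.77 to -0.14, limma adjusted p = 0.0613). CKX7 had a log2FC of -0.69 (SE 0.22) abaxially at 300 min (limma adjusted p = 0.0438). That call was lost without each of the 4 replicates (limma adjusted p of 0.0573 to 0.281), with a pseudocount of 5 (0.0680), without the filter on low values (0.0726) and with edgeR (0.0769).

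APT2 was also lower in the petiole, in samples and tissues that did not enter its choice. On the abaxial side at 300 min it had 91.8, 114, 60.0 and 84.1 normalized read counts in FRtip, against 161, 182, 140.3 and 147 in WL. On the adaxial side at 300 min it had 114, 158, 94.8 and 123 in FRtip, against 221, 237, 189.8 and 218 in WL. The log2FC was -0.40 (SE 0.10) abaxially (limma adjusted p = 0.00285) and -0.41 (SE 0.059) adaxially (limma adjusted p = 1.21e-06) at 100 to 180 min. For 300 min it was -0.87 (SE 0.22) abaxially (limma adjusted p = 0.00661) and -0.84 (SE 0.13) adaxially (limma adjusted p = 2.14e-05). The abaxial call at 100 to 180 min was lost without replicate 3 (limma adjusted p = 0.0746) and that at 300 min without replicate 1 or 4 (limma adjusted p = 0.0588 and 0.0685), while both adaxial calls were kept. The DEG rule was met downward at 1 of 8 time points abaxially and 4 of 8 adaxially, against 3.79% and 2.29% of all gene and time point pairs. On the abaxial side at 100 to 180 min SUC2, a phloem transporter gene of the vasculature list of 4, was called higher in FRtip (log2FC 0.73). Over all abaxial time points APL averaged 31.4 in FRtip and 33.2 in WL, CESA7 31.1 and 32.4, and XCP1 108 and 100. The summed vasculature markers ranged from 154 to 375 in FRtip and 141 to 358 in WL over all time points. Their part in the petiole results was not tested.

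The FRtip effect on CKX5 and CKX4 differed between the leaf tip and the abaxial petiole. Leaf tip minus abaxial petiole at 100 to 180 min, the effect differed by 2.08 (SE 0.12) for CKX5 (limma adjusted p = 9.67e-30) and by -1.09 (SE 0.21) for CKX4 (limma adjusted p = 1.21e-05), where 18.3% of all genes were called. It was not called for CKX6, at -0.14 (95% interval -0.38 to 0.10), for CKX7, at -0.31 (95% interval -0.58 to -0.035, limma adjusted p = 0.119), or for CKX1, at -0.35 (95% interval -1.09 to 0.38). Between the petiole sides, 0 of 6 members had an effect that limma called different over 100 to 300 min, where 0.837% of all genes were. The interval of that difference was -0.19 to 0.80 for CKX1, 0.019 to 0.40 for CKX6 and -0.20 to 0.20 for APT2. The unadjusted p was below 0.05 for 2 of them, CKX4 and CKX6, and edgeR called 0. The study separated the sides of the petiole, and whether samples of the same number came from the same leaves is not stated. The fits took the samples of the tissues as independent, so that these intervals and calls leave out any such pairing.

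Overlapping genes limit what can be said of CKX5 and CKX6. CKX6 overlaps AT3G63445 on the other strand, and CKX5 overlaps UBC16 (AT1G75440), a ubiquitin-conjugating enzyme, on the other strand. The library method keeps the strand, but the strand setting of the counting is not given in the sources used here. In the leaf tip at 40 to 80 min AT3G63445 averaged 223 normalized read counts in FRtip and 75.4 in WL (log2FC 1.48 (SE 0.11)). UBC16 averaged 118 in FRtip and 36.4 in WL (log2FC 1.74 (SE 0.13)). Within groups, over 199 samples, the deviations of AT3G63445 and CKX6 had a Pearson r of 0.565, and those of UBC16 and CKX5 one of 0.156. In the petiole at 100 to 180 min AT3G63445 had a log2FC of 1.10 abaxially and 0.93 adaxially, and UBC16 one of 0.21 and 0.15. Reads of CKX6 and AT3G63445, or of CKX5 and UBC16, may be shared. The part of this in the values of CKX5 and CKX6 in any tissue was not tested. No 75-base stretch of any member's transcript matched another place in the genome exactly.

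Across the pathway, the type-A response regulators fell in the leaf tip. These are early cytokinin response genes and act as brakes on the signal. At 100 to 180 min 8 of 8 tested fell in the leaf tip, where 16.8% of all genes fell, with a median log2FC of -1.82 against -0.0083 over all genes. At 300 min 7 of 8 fell (median -1.75), against 5.48% of all genes, and at 40 to 80 min 2 of 8 fell and none rose, against 6.2% that fell. ARR6 averaged 21.1 normalized read counts in FRtip and 141 in WL at 100 to 180 min (log2FC -2.99 (SE 0.13)). ARR15 averaged 4.66 in FRtip and 37.3 in WL (log2FC -3.15 (SE 0.21)). ARR4, ARR5 and ARR7 had a log2FC of -1.80, -1.83 and -2.34. In the petiole at 100 to 180 min 1 of 8 rose and 2 fell abaxially (5.77% and 4.38% of all genes), and 2 rose and 1 fell adaxially (3.15% and 1.63%). ARR7 averaged 332 in FRtip and 190.5 in WL abaxially at 100 to 180 min (log2FC 0.80 (SE 0.062)) and rose adaxially by 0.62, while ARR6 fell on both sides (log2FC -0.54 and -0.24) and ARR15 fell abaxially (log2FC -0.57). At 300 min ARR7 was lower in FRtip on both sides (log2FC -0.52 abaxially and -0.43 adaxially). The calls of ARR7 at 300 min were lost without 3 of the 4 replicates on each side (limma adjusted p of up to 0.186 abaxially and 0.135 adaxially), and that of ARR6 at 100 to 180 min adaxially without any 1 of them (up to 0.121).

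Of the perception and output genes fewer were called. Of 8 tested receptor and phosphotransfer genes, 1 rose and 4 fell in the leaf tip at 100 to 180 min, where 12.4% of all genes rose and 16.8% fell. The receptor AHK4 was at 17.4 in FRtip and 41.03 in WL (log2FC -1.30 (SE 0.14)), and its log2FC at 300 min was -1.74. Of 6 type-B response regulators, the transcription factors that carry the signal to the genes, 2 fell, with ARR11 at -1.33. Of 6 cytokinin response factors, 1 fell at 100 to 180 min, a share close to that of all genes, and 2 at 300 min, where 5.48% of all genes fell. CRF2 had a log2FC of -1.36 at 100 to 180 min and -1.38 at 300 min, and CRF5 one of 1.43 at 40 to 80 min and -1.69 at 300 min. Abaxially, CRF3 and CRF5 rose at 100 to 180 min (log2FC 0.55 and 0.57). Both calls were lost without replicate 1, 2 or 4 (limma adjusted p of up to 0.154 for CRF3 and 0.281 for CRF5), and that of CRF2 at 300 min without replicate 3 or 4 (up to 0.104).

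The genes for synthesis, activation, conjugation and transport were called in part. Of 6 tested genes for isopentenyltransferases and CYP735A enzymes, which make cytokinin nucleotides, 1 fell at 100 to 180 min, IPT3 (log2FC -0.85 (SE 0.12)), and 1 at 300 min, IPT9 (log2FC -0.73), against 16.8% and 5.48% of all genes. Abaxially IPT5 fell, with a log2FC of -0.83 and means of 1.23 in FRtip and 2.90 in WL. At so few reads this value depends on the pseudocount and ranged from -1.26 to -0.34 over the alternatives. LOG enzymes release the active base. In the leaf tip at 100 to 180 min 2 of 4 rose, LOG7 and LOG8 (log2FC 0.65 and 0.36), against 12.4% of all genes, and in the petiole LOG1 rose (log2FC 0.96 (SE 0.17) abaxially and 0.53 (SE 0.059) adaxially). LOG1 was also higher in FRtip in the leaf tip at 300 min (log2FC 0.69), after a log2FC of -0.36 at 40 to 80 min, while LOG8 was lower adaxially at 300 min (log2FC -0.49). Of 4 glucosyltransferases, which conjugate cytokinins, UGT76C2 and UGT85A1 fell in the leaf tip at 100 to 180 min (log2FC -0.69 and -0.96), and UGT73C5 fell at 40 to 80 min (log2FC -0.93). Of all genes, 16.8% fell in the leaf tip at 100 to 180 min and 6.2% at 40 to 80 min. Of 7 transport genes, PUP1 and PUP14 fell in the leaf tip at 100 to 180 min (log2FC -1.60 and -0.37), against the same 16.8%. ABCG14, which exports cytokinin toward the shoot, fell on both petiole sides in that window (log2FC -0.43 abaxially and -0.52 adaxially). Abaxially at 100 to 180 min 1 glucosyltransferase rose and 1 fell, and 1 transport gene rose and 2 fell (5.77% and 4.38% of all genes). Adaxially 1 of each list fell and none rose (1.63% of all genes fell). Several of these calls were lost when 1 replicate was left out. These were LOG8 adaxially at 300 min (limma adjusted p of up to 0.469), IPT9 (up to 0.113), ABCG14 abaxially (up to 0.0757), and, in the leaf tip, LOG1 (up to 0.107) and UGT73C5 (up to 0.0748) at 40 to 80 min and LOG7 (up to 0.0502).

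Of the 4 other APT genes tested, 1 rose and 1 fell in the leaf tip at 100 to 180 min, where 12.4% of all genes rose and 16.8% fell. APT3 fell in the leaf tip in all 3 windows, with means of 67.8 in FRtip and 164 in WL at 100 to 180 min (log2FC -1.31 (SE 0.089)). APT1, which carries most of the adenine salvage activity of the plant, averaged 206 in FRtip and 190.2 in WL (log2FC 0.12 (SE 0.043), limma adjusted p = 0.0327). APT5 had a log2FC of -0.95 at 40 to 80 min and 1.42 at 300 min, both called, the first lower and the second higher in FRtip. The first call was lost without replicate 1 (limma adjusted p = 0.0948) and the second without replicate 1 or 2 (up to 0.252). ADK1, an adenosine kinase, averaged 319 in FRtip and 311 in WL in the leaf tip (log2FC 0.032 (SE 0.050), limma adjusted p = 0.707).

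**Figure D5:**
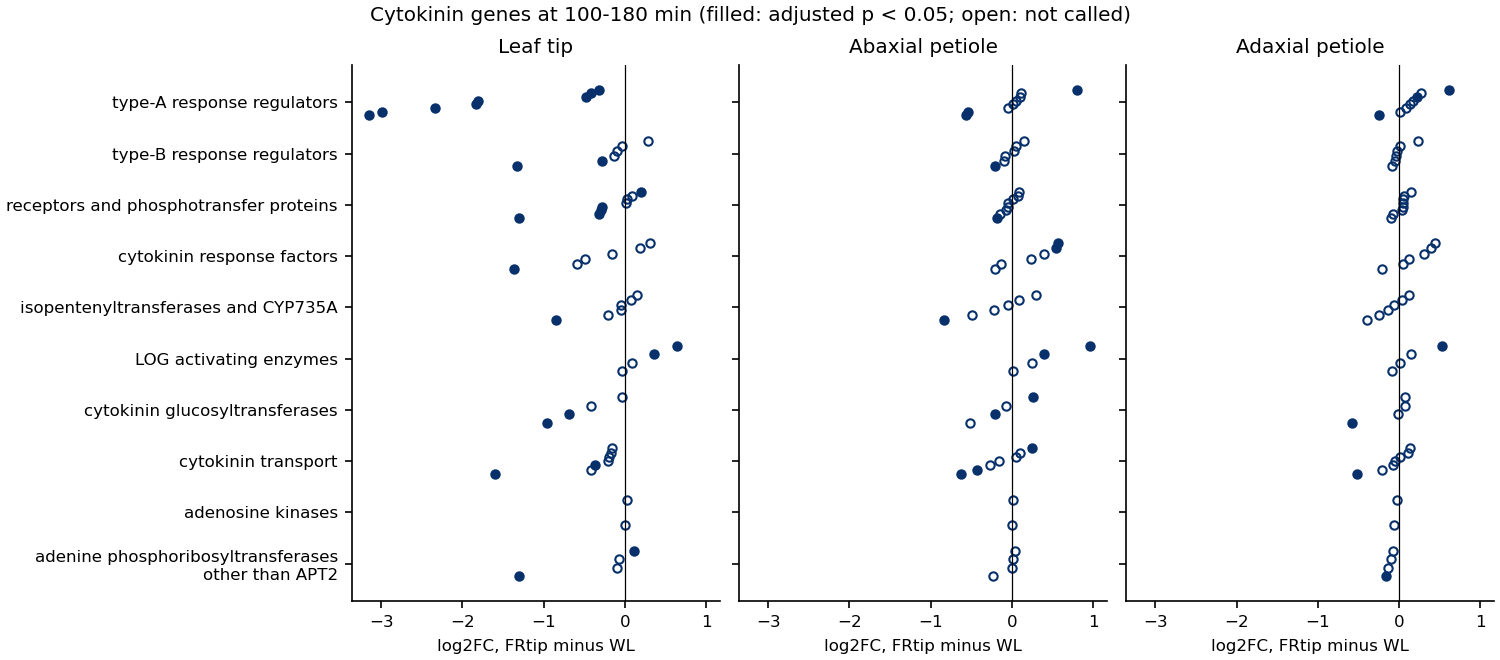
log2FC, FRtip minus WL, at 100 to 180 min of the tested genes of each cytokinin list in the leaf tip and on both petiole sides, with filled points for genes called at an adjusted p below 0.05. All 8 type-A response regulators lie left of 0 in the leaf tip, and ARR7 lies to the right at 0.80 abaxially and 0.62 adaxially.

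The closest expression patterns over the 50 means per tissue, treatment and time point tied the members to other genes. Each gene was first centred on its mean in each tissue, so that differences in level between the tissues do not enter. The values are a description with no test. CKX5 was closest to AT3G21330 (Pearson r = 0.951), AT2G28400 (0.944) and HB-2 (0.943), the shade-induced HAT4. APT2 was closest to ARR6 (0.938), AT3G51950 (0.925) and AT5G62890 (0.916). CKX4 was closest to AT5G63180 (0.822), ARR6 (0.806) and AT5G49100 (0.80). CKX6 was closest to the overlapping AT3G63445 (0.982), then AT3G54000 (0.920) and BHLH32 (0.903), and CKX7 to CYP71B2 (0.914), EXO70H7 (0.893) and PYL4 (0.885). Among the members themselves, CKX4 and APT2 had an r of 0.770, CKX5 and CKX6 one of 0.606, and CKX5 and APT2 one of -0.754. The leaf tip values by which APT2 was chosen enter each r of APT2, which is therefore not independent of that choice.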

How the data were processed

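RNA from leaf tips and petiole sides was sequenced (BrAD-seq). The deposited signal values are read counts per gene divided by the authors' DESeq2 size factor of each sample, with reads assigned to TAIR10. The submitters' processing notes also name FastQC, STAR, Picard and HTSeq. Division by the step of each sample made 100% of its values whole, within 0.001 read, and so gave the reads and the depth. Of 204 samples, 5 petiole samples at 40 min had too few replicates and stayed out of the tests. Among 297 pairs of samples of the same group, the lowest chi-square per gene was 1.428, so all were counted as separate samples. Counting intervals and limits cover counting error only.

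Groups were the treatments at a time point in a tissue. limma 3.58.1 in R 4.3.3 was run per tissue on log2(normalized count + 1), for 19963 genes whose mean was 1 or more, with 1 coefficient per group. Contrasts averaged the time points of a window. Differences between tissues came from fits over both, with samples of different tissues taken as independent. Tests were two-sided with Benjamini-Hochberg adjustment at 0.05. edgeR 4.0.16 (quasi-likelihood, TMM) on the recovered reads was an alternative, beside a pseudocount of 0.5 or 5, no filter or a mean of 10 or more, median centring, a replicate block and leaving out each replicate. Symbols and positions came from TAIR10.1 of RefSeq, a minor release of TAIR10, for 32835 loci. Python 3.11.15 with NumPy 2.4.6, pandas 2.3.3, matplotlib 3.10.9 and SciPy 1.17.1 made the tables and figures, and BLAST+ 2.17.0 searched for copies. Levels per kb used the longest transcript.

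The members and the pathway and marker lists were chosen with earlier results of these data known. The text names all members, the pathway genes called with a log2FC of at least 0.5 in either direction in 1 or more tissues at 100 to 180 or 300 min, for a list with none its most abundant gene, and the 3 genes closest in pattern to each member with a mean of at least 10. APT1 was named after its values were seen. Windows other than these are given for genes so named.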

Additional observations from a re-analysis of the deposited data

Results flagged for a closer look

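Each of the 6 tested members was looked at in each group of 4 samples, which made 294 sets of values. Of these, 16 (5.44%) held a sample far from the other 3, where chance gives about 1 in 20. The members share the samples, so that the sets are not independent. In the leaf tip these were CKX5 in FRtip at 60 min (replicate 4 at 584 normalized read counts, the others at 396 to 418), APT2 in FRtip at 140 min (replicate 1 at 18.2, the others at 3.17 to 5.65) and CKX1 in FRtip at 160 min (replicate 3 at 10.9, the others at 5.73 to 6.59). They were also APT2 in WL at 120 min (replicate 2 at 115.8, the others at 90.5 to 90.6) and CKX4 in WL at 100 min (replicate 1 at 52.02, the others at 28.7 to 30.5). On the abaxial side, CKX4 in FRtip at 60 min had 16.6 in replicate 4, CKX6 in FRtip at 160 min had 186 in replicate 1 and CKX1 in FRtip at 180 min had 31.9 in replicate 1. In abaxial WL samples, CKX5 at 100 min had 19.9 in replicate 3, CKX4 at 120 min had 6.82 in replicate 1, CKX6 at 140 min had 57.4 in replicate 1 and CKX6 at 300 min had 41.2 in replicate 4. On the adaxial side, CKX1 in FRtip at 120 min had 9.01 in replicate 4, CKX6 in FRtip at 140 min had 122.6 in replicate 1, CKX1 in WL at 80 min had 4.84 in replicate 4 and CKX6 in WL at 120 min had 86.6 in replicate 2.

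The FRtip effect differed between windows or tissues for 3 oxidases. At 300 min minus 100 to 180 min it was 0.71 for CKX5 in the leaf tip, and -0.96 abaxially and -0.93 adaxially for CKX6. Leaf tip minus abaxial petiole, it was 2.08 for CKX5 and -1.09 for CKX4. CKX4 in the leaf tip had all FRtip samples above WL at 40 min (log2FC 1.02) and below WL at 5 time points. CKX1 on the adaxial side had all FRtip samples below WL at 80 min (log2FC -0.87) and above WL at 4 time points. These last differences between time points were not tested.

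In the 40 min petiole samples, which entered no comparison, APT2 had 243 normalized read counts in an abaxial FRtip sample (exact Poisson 95% interval 217 to 272) and 184 in an abaxial WL sample (165 to 203). These are single samples, so that the difference compares those samples only.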

How the results depend on the processing

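Of 43 results in which a member was called, 468 comparisons with an alternative gave 435 that stayed called in the same direction and 33 that did not, with no change of direction. The rise of CKX5 in each of the 3 windows in the leaf tip, and the fall of CKX4 there from 100 min on, stayed called throughout. Of 63 calls of pathway genes, 27 were lost under 1 or more alternatives, in 77 of 686 comparisons, 64 of them without 1 replicate and 13 otherwise. A left-out replicate also leaves fewer samples. Of 64 results not called, 690 comparisons gave 13 newly called and 24 of the other sign. With a pseudocount of 0.5 the log2FC of CKX1 in the leaf tip at 40 to 80 min was 0.0046, and the side difference of APT2 was -0.0036 after median centring and -0.0049 with edgeR. At 60 to 80 min limma called 1 gene abaxially with a pseudocount of 0.5 or no filter, and 3 adaxially with a mean of at least 10. With that filter 0 oxidases were called adaxially at 300 min, since CKX1 was not tested. With an adjusted p in place of the DEG rule, 895 genes per time point were called in the leaf tip, 214 abaxially and 57.9 adaxially (means).

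The replicate numbers were not taken as pairs, since no source says what they share and not all pairs deviated together. Deviations of FRtip and WL samples with the same number had a correlation above 0.1 in 62 of 99 pairs (median 0.13, against -0.041 for other numbers). The share of such pairs was 11 of 35 in the leaf tip, 24 of 32 abaxially and 27 of 32 adaxially. Adaxially 32 of 32 FRtip samples were closest to the WL sample of their own number, abaxially 21 of 32 and in the leaf tip 29 of 35, which is a hint of pairing from the data and not from the design. The block called more genes in most comparisons, such as 2022 abaxially at 300 min, against 1435 without it, and 1282 adaxially at 100 to 180 min, against 954. The replicate block called 1 gene abaxially and 13 adaxially in the 60 to 80 min window, and 2319 in the leaf tip for 300 min. It lost no call of a member and added calls for CKX6 (leaf tip minus petiole in WL), CKX7 (change of effect in the leaf tip) and APT2 (adaxial change of effect).

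Leaving out 1 replicate at a time, the genes called numbered 1272 to 1809 in the leaf tip at 300 min and 120 to 253 for the change of effect there. Abaxially they numbered 0 to 2 at 60 to 80 min, 1261 to 1656 at 100 to 180 min, 540 to 1038 at 300 min and 199 to 303 for the change of effect. Adaxially they numbered 0 to 0, 480 to 728, 223 to 436 and 105 to 214 in the same order. The side difference had 38 to 96, and WL over time 3367 to 4084 in the leaf tip, 1871 to 2315 abaxially and 1770 to 2005 adaxially. Oxidases called at 300 min numbered 1 to 2 abaxially and 0 to 1 adaxially. Results that were not called and took both signs were CKX1 in the leaf tip at 40 to 80 min (-0.24 to 0.26), at 300 min (-0.12 to 0.78) and in the change of effect (-0.85 to 0.11), and abaxially at 60 to 80 min (-0.091 to 0.47). Leaf tip minus abaxial petiole, CKX1 ranged from -0.64 to 0.20 and CKX6 from -0.25 to 0.031. CKX4 ranged from -0.48 to 0.30 in the abaxial change of effect, and adaxially from -0.19 to 0.53, -0.15 to 0.076 and -0.033 to 0.27 in the 3 windows. Adaxially at 60 to 80 min CKX5 ranged from -0.21 to 0.013, CKX6 from -0.055 to 0.045, CKX7 from -0.13 to 0.027 and APT2 from -0.13 to 0.0080. The adaxial change of effect of CKX5 ranged from -0.15 to 0.024, CKX6 abaxially at 300 min from -0.022 to 0.12, and the side difference of APT2 from -0.053 to 0.12. The causes of these changes were not tested.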
